A study of Mus musculus with 2 samples.

Results

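The cells described here are Cd209a-positive type 2 conventional dendritic cells (cDC2) of the mouse peritoneal cavity, 415 of 30733 cells in all. They were taken by a gate on single-cell RNA counts: at least 3 UMIs (unique molecular identifiers, each standing for 1 captured mRNA molecule) of Cd209a, at least 50 MHC class II UMIs per 10000 (H2-Aa, H2-Ab1, H2-Eb1 and Cd74 summed), under 15 C1q UMIs per 10000 (C1qa, C1qb and C1qc summed), under 10 Retnla UMIs per 10000, and at most 2 UMIs of Cd79a and Cd3e together. The study compared 2 groups of mice aged 10 to 14 weeks, both given 1 mg of zymosan per animal, a yeast cell wall preparation that causes sterile peritonitis, with the cavity sampled on day 3. In the group called Cd36-/- here, LysM-Cre was combined with floxed CD36; the group called fl/fl carried floxed CD36, and its strain label names no Cre. LysM-Cre is expressed from the lysozyme 2 locus, which is active in macrophages and neutrophils and in part of the dendritic cells, so it is not restricted to macrophages. Each group was 1 pool of 4 replicates sequenced as 1 library, and there is no spread between animals to set a difference against. No test was therefore run, and every interval below is a 95% interval for counting error only.

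Conventional dendritic cells take up antigen in tissues, carry it to lymph nodes and present it to T cells. The type 1 subset (cDC1) depends on IRF8 and BATF3 and presents to cytotoxic T cells, while cDC2 depend more on IRF4, present mainly to helper T cells and carry C-type lectins that bind carbohydrates of fungi, mites and other particles. Cd209a encodes a mouse relative of human DC-SIGN, one of these lectins, and in the peritoneum it is shared by cDC2 and by some macrophages that express MHC class II, from which the C1q and Retnla limits separate the cells here.

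After limits of at least 200 genes and at most 10% mitochondrial UMIs per barcode, 16000 Cd36-/- and 14733 fl/fl cells remained, and the gate held 165 and 250 of them. Gate cells had a median of 6869 and 8570.5 UMIs and 1838 and 2090.5 genes, and their summed UMIs came to 1186970 and 2183521. The Cd36-/- estimates thus rest on fewer cells and fewer molecules per cell. Of all cells, 333 barcode sequences occurred in both libraries; no sequence was shared between the gate cells of both libraries, and 9 gate barcodes matched any cell of the other library. Scrublet marked 0 and 2 gate cells as doublets, against 6.11% and 4.94% of all cells.

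The gate starts from Cd209a, and the regions before Cd209a, Cd209d and Mgl2 are shown because these 3 lectin genes were among those that set the gate cells apart from the other cells. Cd209a (chr8:3743397-3748984, minus strand, GENCODE M21 on mm10) and its relative Cd209d (chr8:3871824-3878555, minus strand) lie 122840 bases apart, and Mgl2 (chr11:70130329-70137550, plus strand) lies 18647 bases from the lectin gene Clec10a. Each line gives the 250 bases before the RefSeq start of the gene (GRCm38.p6), 5′ to 3′ on the strand of the gene. Capitals mark the letters AGGAAG on either strand, a longer form of the GGAA core that ETS factors such as PU.1, a factor of myeloid cells, can bind. The letters GGAA alone are not marked, and they also occur in the Cd209a window. The windows are chr8:3748985-3749234 for Cd209a, chr8:3878500-3878749 for Cd209d and chr11:70130107-70130356 for Mgl2, and those of Cd209d and Mgl2 overlap the start of the GENCODE gene model.
Cd209a: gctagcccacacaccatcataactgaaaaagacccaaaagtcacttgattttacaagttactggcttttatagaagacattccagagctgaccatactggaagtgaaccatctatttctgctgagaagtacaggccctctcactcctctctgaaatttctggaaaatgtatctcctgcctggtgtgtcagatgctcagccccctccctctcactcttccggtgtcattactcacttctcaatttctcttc
Cd209d: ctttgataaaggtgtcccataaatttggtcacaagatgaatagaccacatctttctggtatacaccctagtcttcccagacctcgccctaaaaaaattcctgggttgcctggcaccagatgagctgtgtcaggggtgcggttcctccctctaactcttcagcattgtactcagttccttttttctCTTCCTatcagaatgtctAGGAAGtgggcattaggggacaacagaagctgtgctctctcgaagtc
Mgl2: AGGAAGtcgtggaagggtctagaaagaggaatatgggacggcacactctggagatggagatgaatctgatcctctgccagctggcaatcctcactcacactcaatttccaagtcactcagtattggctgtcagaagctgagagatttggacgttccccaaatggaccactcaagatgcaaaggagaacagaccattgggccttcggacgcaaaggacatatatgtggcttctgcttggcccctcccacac
The Cd209d window held 2 such matches, starting 65 and 47 bases before the gene, the Mgl2 window held 1 at its far end, 250 bases before the gene, and the Cd209a window held 0. The letters occur in 29.6% of 32536 RefSeq windows of this length, so a match or its absence in 1 window separates these genes from few others. Matches to the composite ETS-IRF element, to which both kinds of factor can bind together, were found on either strand once in the Cd209d window and in 2.31% of all windows. These are descriptions of letters and do not show that a factor is bound.

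Because the rule chose cells by these values, the levels of its genes are given as a description. Per cell, Cd209a ranged from 3 to 55 UMIs with a median of 10 in Cd36-/-, and from 3 to 41 with a median of 11 in fl/fl. MHC class II UMIs had medians of 749 and 782 per 10000, far above the limit of 50, and the lowest cells were at 67.8 and 117. C1q had medians of 3.60 and 2.32 per 10000, and most gate cells had no Retnla UMI. Just inside the threshold, 18 and 28 cells had 3 Cd209a UMIs, and just outside it 21 and 16 cells met all other limits with 2. Clec10a was at 474 and 386 CPM (the summed UMIs of a gene relative to all UMIs of those cells) in the cells with 3 and at 203 and 225 CPM in those with 2, and Lyz2 was at 1847 and 4324 CPM against 4752 and 8556 CPM. Cells with 0 Cd209a UMIs that met all other limits were more numerous, at 703 and 609.

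The limit on Cd79a and Cd3e removed the most cells of any step after Cd209a. It took 63 Cd36-/- and 79 fl/fl cells that met every other limit. Of these, 54 and 76 had more than 2 UMIs of Cd79a, a chain of the B cell receptor complex. Their Cd79a was at 1143 and 1138 CPM against 27.0 and 37.1 CPM in the gate. Their Cd209a was at 774 and 753 CPM against 1622 and 1525 CPM, their median UMI counts were 11830 and 14897, and Scrublet marked 2 and 3 of them. Cells with transcripts of both a dendritic cell and a B cell were thus excluded by the rule, in both libraries.

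The gate cells carried the markers of cDC2 that the rule did not use. Of the 13 other genes on a list of cDC2 markers, all were detected in both libraries and 9 were at least 5-fold above all other cells in both; the others were Napsa, Irf4, Ifitm6 and Sirpa, and Sirpa, which encodes CD172a, was at 0.842 and 1.08 times the other cells. Mgl2, a lectin for galactose-type sugars also called CD301b, was at 353 CPM (320 to 388) in Cd36-/- and 278 CPM (257 to 301) in fl/fl gate cells, against 4.30 and 4.85 CPM in all other cells of the same library. Clec10a, which encodes the related lectin CD301a, was at 556 CPM (514 to 600) and 545 CPM (515 to 577), 25.2 and 22.6 times the level in other cells. Plbd1, a phospholipase of myeloid cells, was at 450 CPM (413 to 490) and 459 CPM (431 to 489), and was higher still in cDC1, at 767 and 854 CPM. Ffar2, a receptor for short-chain fatty acids, was at 73.3 CPM (58.7 to 90.4) and 69.6 CPM (59.0 to 81.6), 36.3 and 36.8 times the level in other cells. These 4 markers ordered the gate above the macrophage, B cell and T cell gates in both libraries, and their intervals between genotypes overlapped except for Mgl2.

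Markers shared by conventional dendritic cells were also present. Flt3, the receptor that maintains dendritic cells, was at 61.5 and 86.6 CPM, about 30 times the other cells (31.4 and 30.5). Zbtb46, a transcription factor of the conventional lineage, was low at 14.3 and 15.1 CPM but was at 0.984 and 0.946 CPM elsewhere. Itgax, which encodes CD11c, was at 77.5 and 65.5 CPM against 3.24 and 3.06 CPM. Irf4, the factor tied to the subset, was at 82.6 and 67.8 CPM, 2.90 and 2.46 times the other cells.

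**Figure D1:**
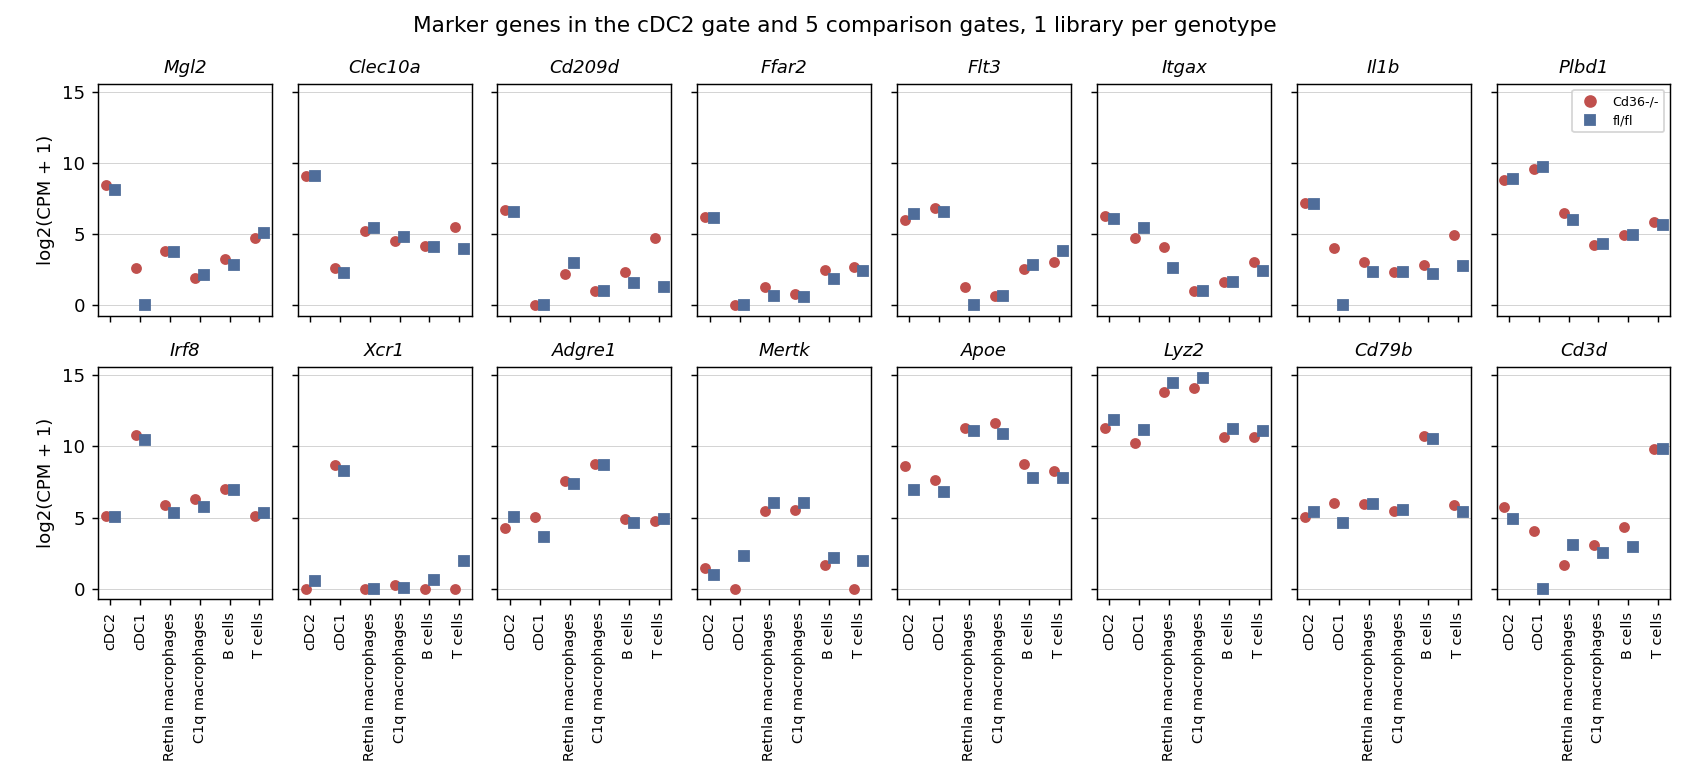
Level of 16 genes in the cDC2 gate and 5 comparison gates, as log2(CPM + 1) of UMIs summed within each gate; circles are the Cd36-/- library and squares the fl/fl library, with 1 value per library and no error bars. Mgl2, Clec10a, Cd209d, Ffar2 and Il1b are highest in the cDC2 gate, Flt3, Itgax and Plbd1 are high in both dendritic cell gates, and Adgre1, Mertk, Apoe, Lyz2, Cd79b and Cd3d are each highest in a macrophage, B cell or T cell gate.

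Defining genes of other cell types were at or near 0. The cDC1 receptors Xcr1 and Clec9a gave 0 and 5 UMIs in the Cd36-/- gate cells and 1 and 9 in the fl/fl gate cells, against 410 and 313 CPM of Xcr1 in the cDC1 gate, and Irf8 was at 33.7 and 32.5 CPM against 1760 and 1415 CPM there. The cDC1 gate itself was small, at 19 and 20 cells. Of genes of resident peritoneal macrophages, Gata6 gave 0 and 3 UMIs, and Mertk, a receptor for dying cells, gave 2 and 2. Adgre1, which encodes F4/80, was at 18.5 and 32.5 CPM, close to the 29.2 and 24.1 CPM of the B cell gate and far under the 423 and 411 CPM of the C1q macrophage gate. Summed over 12 markers of large peritoneal macrophages, the gate held 350 and 313 CPM, the B cell gate 386 and 332 CPM, and the C1q macrophage gate 5220 and 4953 CPM. The summed list of B cell markers was at 581 and 599 CPM against 23508 and 21711 CPM in the B cell gate. Neutrophil markers summed to 10.1 and 17.4 CPM, and eosinophil markers to 0 and 0.458 CPM.

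Genes that define subsets within cDC2 differed in level. Genes of the subset marked by T-bet summed to 101 and 109 CPM over 8 genes, most of it Ltb, a lymphotoxin gene also expressed by lymphocytes, at 88.5 and 98.0 CPM against 542 and 452 CPM in B cells and 715 and 639 CPM in T cells. Tbx21 itself gave 2 and 1 UMIs, Esam gave 0 in both libraries and Clec4a4 gave 1 and 6. Of genes of the other subset and of monocyte-like dendritic cells, Clec12a was at 87.6 and 75.6 CPM and Cx3cr1, the fractalkine receptor, at 105 and 98.5 CPM. Ccr2, the receptor for monocyte chemoattractant, was at 503.8 and 447 CPM, and Cd163 was low at 12.6 and 10.1 CPM. Fcgr1 was at no more than 8.10 and 10.2 CPM in gate cells grouped by Cd209a UMIs. In cells with 0 Cd209a UMIs that met all other limits, Ccr2 was at 449 and 544 CPM. Clec12a was higher in those cells than in the gate in both libraries. Cx3cr1 was lower there, at 58.1 and 81.2 CPM, as was Cd163, at 2.14 and 0.863 CPM. Clec12a and Ccr2 thus did not set the gate apart from those cells. Siglech, a plasmacytoid dendritic cell gene, gave 6 UMIs in 2 Cd36-/- cells and 22 UMIs in 3 fl/fl cells. T cell markers summed to 261 and 158 CPM, against 4837 and 4451 CPM in the T cell gate and 90.2 and 32.3 CPM in the B cell gate, and Cd3g gave 48 and 44 UMIs.

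Against all other cells, 84 of 3854 genes with a level to compare (2.18%) were at least 5-fold higher in the gate in both libraries. The cells were chosen by genes that belong to the same profile, so this is a description of the gate. By role, the 25 most raised genes held 4 lectin genes beside the rule, namely Mgl2, Clec10a, Clec4b1 and Cd209d. Clec4b1, which encodes a lectin of the Dectin-2 cluster, was at 305 and 284 CPM, and Cd209d was at 101 and 93.0 CPM, 57.5 and 50.1 times the other cells. Surface receptors made up a further group: Flt3, Ffar2, Itgax, Slamf7, the killer cell lectin-like receptor Klrb1b, the signal-regulatory protein Sirpb1a, Cd7, the peptidase Dpp4, the adhesion molecule Jaml and Ramp1, the partner of the receptor for the neuropeptide CGRP. Ramp1 was at 107 and 114 CPM, 13.9 and 15.2 times the other cells, and Slamf7 at 96.9 and 120.0 CPM. Il1b, the inflammatory cytokine, was the 1 cytokine among the 25, at 146 CPM (125 to 169) and 136 CPM (121 to 153) against 6.57 and 5.53 CPM in other cells. It was detected in 41.2% and 42.8% of gate cells and in 3.50% and 2.01% of T cells, whose median depths were 3210 and 4015 UMIs. The other genes of the 25 were Fxyd7, Cox6b2, Ifitm1, Grk3, Olfm1, Gsn, Ddit4, Ms4a4c, Bcl2a1d and Plbd1. Of the last 500 bases of the Bcl2a1d transcripts, 97.7% of 31-base words also occur in transcripts of other genes, so that its count and those of its relatives are uncertain. The same share was 30.9% for Clec4b1, 28.4% for Sirpb1a, 24.7% for Clec10a, 15.1% for Mgl2 and 0 for Cd209a and Cd209d.

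Gate cells differed among themselves in a small set of genes. After each cell was reduced to 2000 UMIs, which left out 0 and 4 cells, the variance divided by the mean was 1.03 and 1.02 for the median gene of 1678, close to counting noise. The 20 most variable genes included the cDC2 genes Mgl2, Cd209d and Cd7, with ratios of 2.75 and 2.47, 3.55 and 2.59, and 2.64 and 2.35. Mgl2 was detected in 38.8% of Cd36-/- and 37.6% of fl/fl gate cells, and Cd209d in 38 and 55 gate cells, although both are among the 25 genes highest over other cells. In T cells, Mgl2 was detected in 1.40% and 2.01%. Clec10a and Plbd1 were more even, in 82.4% and 80.4% and in 92.1% and 94.0% of gate cells. Plac8, a gene of monocytes and early dendritic cells, had ratios of 3.00 and 3.01, and Ifitm1, an interferon-induced membrane protein gene, 2.15 and 4.48. Lyz2 varied more in the fl/fl library, at 13.7 against 4.87. Ccl5, a chemokine of T and NK cells, had ratios of 4.01 and 6.70, with up to 12 and 19 thinned UMIs in 1 cell, and its level in the gate was 151 and 178 CPM against 5847 and 5016 CPM in the T cell gate. The others of the 20 were Actb, Malat1, Tmsb4x, Tmsb10, Saa3, Crip1, Bst2, Wfdc17, Ifi27l2a, Cst3, Ccl6, Psap and Ly6e.

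Some of these genes followed Cd209a within the gate. From cells with 3 to 5 Cd209a UMIs to those with 6 to 14 and with 15 or more, Mgl2 was at 177, 385 and 446 CPM in the Cd36-/- library and at 177, 237 and 371 CPM in the fl/fl library. Clec10a was at 412, 472 and 771 CPM and at 369, 483 and 697 CPM, and Clec4b1 at 234, 281 and 388 CPM and at 214, 285 and 321 CPM. These 3 lectin genes were highest in the cells richest in Cd209a in both libraries. Cd7, a surface glycoprotein gene of lymphoid and dendritic cells, ran the other way, at 258, 130 and 107 CPM and at 255, 243 and 103 CPM. Cd209d, the neighbour of Cd209a, did not rank with it: it was at 97.1, 74.9 and 137 CPM and at 107, 80.7 and 97.5 CPM. Flt3 was lowest in the cells with most Cd209a, at 40.6 and 62.3 CPM against 70.3 and 111 CPM in those with least. The bins held 44, 73 and 48 Cd36-/- cells and 57, 100 and 93 fl/fl cells, and their median depths ranged from 6498 to 7566.5 UMIs and from 8118 to 9018 UMIs. The lower limits of the bins are raw UMIs, so deeper cells reach the upper bins more easily.

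**Figure D2:**
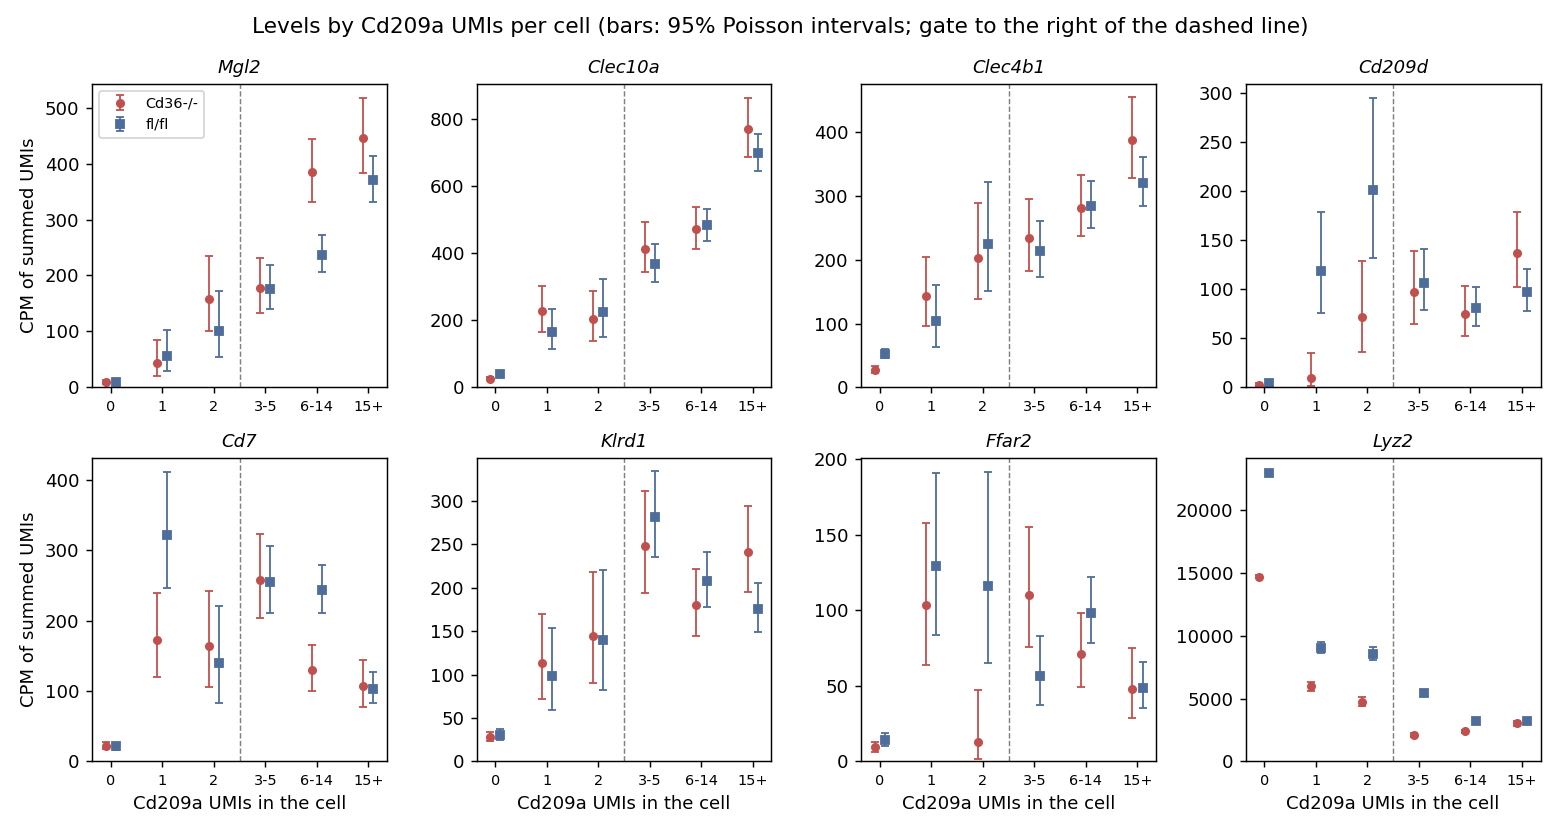
CPM of 8 genes in cells that meet all other limits of the gate, by their number of Cd209a UMIs (x axis); circles are Cd36-/-, squares fl/fl, and bars are 95% Poisson intervals of the summed counts. Mgl2, Clec10a and Clec4b1 are higher with more Cd209a, Cd7 is lower with more Cd209a only inside the gate (21.9 and 21.3 CPM at 0 UMIs), and Lyz2 is at 14684 and 22953 CPM in cells with 0 Cd209a UMIs.

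Few gate cells carried Ccr7, Ly6c2, or Mki67 or Top2a. The list of monocyte markers summed to 2035 and 1770 CPM, against 9244 and 9532 CPM in C1q macrophages. The same sum was 3357 and 2857 CPM in B cells and 1826 and 1543 CPM in T cells, so the gate lay under B cells and near T cells. Plac8, 1 gene of that list, was detected in 122 and 184 gate cells. Ccr7, the receptor that guides mature dendritic cells to lymph nodes, was detected in 12 Cd36-/- cells (7.27%, 3.81 to 12.4) and 21 fl/fl cells (8.40%, 5.27 to 12.6). These shares lay between the 3.85% and 4.09% of C1q macrophages and the 39.2% and 42.4% of B cells, a type that uses the receptor; median depths were 7930.5 and 8986 UMIs in the macrophages and 4384 and 4864 UMIs in the B cells. In the fl/fl cells with a Ccr7 UMI, the maturation gene Il4i1 was at 110.3 CPM against 15.8 CPM in those without, and Mgl2 was at 115 against 297 CPM. In the Cd36-/- cells with a Ccr7 UMI, Il4i1 was at 71.8 against 12.8 CPM and Mgl2 was at 667 against 325 CPM, so Mgl2 lay in opposite directions in the libraries. Il4i1 rested on 7 Cd36-/- and 25 fl/fl UMIs in these cells. Other maturation genes were mixed. Ccl22 was higher in both libraries, on 3 and 29 UMIs, and Fscn1 only in fl/fl, at 22.1 against 1.02 CPM. Relb was at 61.6 against 42.2 CPM and at 48.5 against 38.3 CPM, and Cacnb3 gave 0 UMIs in both libraries. Ly6c2, a gene of classical monocytes, was detected in 9 (5.45%) and 12 (4.80%) gate cells, against 4.77% and 3.89% of B cells and 38.5% and 36.2% of T cells. Its UMIs were concentrated, with 21 of 25 and 98 of 114 in the 5 highest cells of each library. The Ly6c2 cells had more Plac8, at 1994 and 1785 CPM against 551 and 407 CPM, and more Cd7, at 773 and 580.4 CPM against 122 and 167 CPM. Their Cd209d was at 447 and 528 CPM against 83.3 and 68.7 CPM. Lower in these cells were Ms4a4c, at 85.9 and 121 CPM against 183 and 198 CPM, and H2-DMb2, at 34.4 and 243 CPM against 349 and 348 CPM. Mgl2 lay in opposite directions, at 17.2 against 370 CPM in Cd36-/- and 459 against 268 CPM in fl/fl. Plac8 is also a gene of B cells here, at 2402 and 1978 CPM in the B cell gate.

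Mki67 or Top2a, genes of dividing cells, were detected in 15 Cd36-/- cells (9.09%) and 9 fl/fl cells (3.60%) as sequenced, a difference of 5.49 points (0.484 to 11.3) that leaves 0 out, with deeper cells in the fl/fl library. With every cell reduced to 2000 UMIs the shares were 3.03% (0.991 to 6.93) and 0.813% (0.0986 to 2.91), a difference of 2.22 percentage points (-0.705 to 6.18). The thinned shares in T cells were 6.20% and 2.82%, with 14 and 7 T cells left out as too shallow. The interval of the difference in the gate thus included 0 after thinning and not before. The thinned values rest on 5 and 2 cells, and reading the Retnla limit as raw UMIs, which draws the thinned UMIs anew, gave 1.2% and 0.405%, a difference of 0.80 points. The 15 and 9 cells also had more Pclaf, Stmn1 and Tubb5, genes of DNA replication and of microtubules: Tubb5 was at 621 and 600.2 CPM against 305 and 327 CPM.

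The first comparison between genotypes was how many cells the gate held. The gate made up 1.03% of Cd36-/- cells (165 of 16000, Clopper-Pearson interval 0.881 to 1.2) and 1.70% of fl/fl cells (250 of 14733, 1.49 to 1.92). The difference of -0.666 percentage points (-0.934 to -0.402) was larger than counting error. Shares depend on every other population: the C1q macrophage gate held 60.3% of Cd36-/- and 47.6% of fl/fl cells, and the B cell gate 17.0% and 28.2%. Among cells under the C1q limit the gate made up 3.09% of 5339 and 3.77% of 6625, a difference of -0.683 points (-1.34 to -0.0132), which barely left 0 out. The share of the cDC1 gate was 0.119% and 0.136%, within counting error. Without the limit on Cd79a and Cd3e the shares were 1.43% and 2.23%. With 1 pool per genotype, these shares cannot be told apart from differences between pools in cell recovery.

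Cd36 itself was read next, since LysM-Cre can act in dendritic cells. It gave 19 UMIs in 13 Cd36-/- gate cells and 19 UMIs in 17 fl/fl gate cells, which is 16.0 CPM (9.64 to 25) and 8.70 CPM (5.24 to 13.6). The shares of cells with a UMI, 7.88% and 6.80%, lay below those of B cells, 12.7% and 14.7%, although B cells were shallower, and near the 6.29% and 4.70% of T cells. They are read as background, so that no difference of Cd36 in the gate was detectable at this depth. For comparison, Cd36 was at 172 and 244 CPM in C1q macrophages. The labels do not say which exons are floxed, and a 3′ tag outside them would be counted in both genotypes, so these levels do not check the deletion.

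Other macrophage genes differed in the gate in the same direction as in B and T cells. Lyz2, the locus that drives the Cre, was at 2522 CPM in Cd36-/- and 3698 CPM in fl/fl gate cells, a log2 ratio of -0.55 (-0.61 to -0.49); the log2 ratio was -0.59 in B cells and -0.38 in T cells, at 1584 and 2384 CPM and at 1649 and 2142 CPM. Lyz1, a second lysozyme gene 5476 bases away, was at 543 and 46.3 CPM, a log2 ratio of 3.55 (3.25 to 3.87), beside 2.49 in B cells and 3.49 in T cells. Lyz1 was detected in 70.9% and 22.0% of gate cells, and the 5 highest cells held 321 of its 644 and 47 of its 101 UMIs. Apoe was at 386 and 122 CPM (log2 ratio 1.66), beside 431 and 220 CPM in B cells and 302 and 215 CPM in T cells, and 1 Cd36-/- gate cell held 97 of its 458 UMIs. Saa3, an acute-phase gene of macrophages here, was at 2481 and 1647 CPM, against 2573 and 1797 CPM in B cells. All 4 genes were under 1/5 of their level in C1q or Retnla macrophages. Lyz1 and Lyz2 share 37.0% and 36.2% of the 31-base words at their 3′ ends with other transcripts, so some reads could not be assigned to one of them.

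Of 4468 genes with at least 20 CPM in 1 of the libraries, 28 (0.627%) were at least 2-fold higher and 21 (0.47%) at least 2-fold lower in the Cd36-/- gate cells. Most of these were under 20 CPM in the other library, so they met the limit only through the library where they were higher. Among them were Sertad1, Insig1, Rtp4 and Igtp, which were higher, and Acadl, Skint3 and Cxcr4, which were lower. Over all 4468 genes the median log2 ratio was 0.05, and 91.9% lay within 1.5-fold. The cDC2 genes themselves were little different: Clec10a had a log2 ratio of 0.03 (-0.11 to 0.17), Plbd1 -0.03 (-0.18 to 0.12), Ffar2 0.07 (-0.32 to 0.46) and Il1b 0.09 (-0.18 to 0.37). Mgl2 was higher in Cd36-/-, at 0.34 (0.16 to 0.52), at nearly equal shares of positive cells, and its log2 ratio was 0.15 as a mean over cells in place of summed UMIs. Flt3 was lower, at -0.49 (-0.90 to -0.10), and was detected in 30.3% against 48.4% of gate cells, but in 13.3% and 17.9% once thinned to 2000 UMIs, a difference of -4.55 points (-11.7 to 3.12), or -6.16 points (-11.3 to -0.615) at 1000 UMIs. Cd7 had a log2 ratio of -0.29 (-0.55 to -0.04) and Ifitm1 of -0.56 (-0.84 to -0.29).

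**Figure D3:**
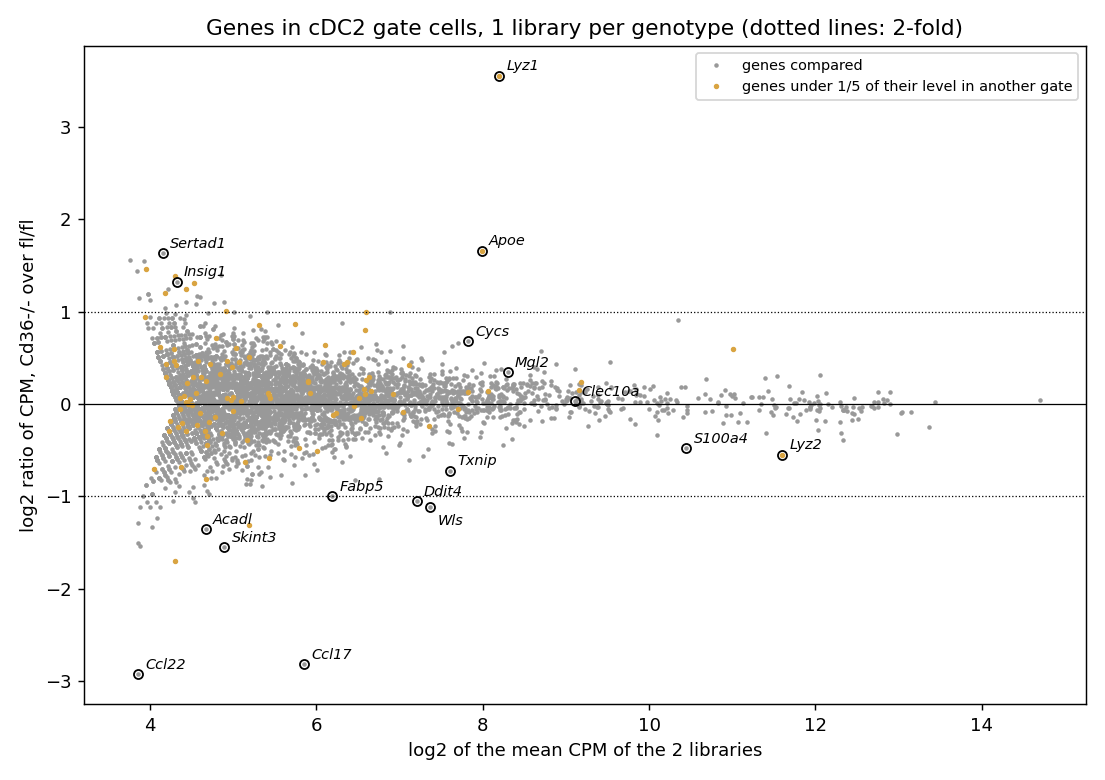
Log2 ratio of CPM in Cd36-/- over fl/fl gate cells (y axis) against the log2 of the mean CPM (x axis) for 4468 genes; orange points are genes under 1/5 of their level in another gate, and dotted lines mark 2-fold. Most genes lie near 0 (median 0.05), the cDC2 genes Clec10a and Mgl2 are at 0.03 and 0.34, and Lyz1 at 3.55 and Ccl17 and Ccl22 at -2.82 and -2.93 are farthest out.

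Among the genes at least 2-fold lower, those with the most counts were Wls and Ddit4. Wls, which carries Wnt proteins to the cell surface, was at 104 CPM (86.9 to 125) in Cd36-/- and 226 CPM (207 to 247) in fl/fl gate cells, with a log2 ratio of -1.11 (-1.41 to -0.83). UMIs of it were in 84 of 165 and 199 of 250 gate cells, 50.9% and 79.6%, and no cell held more than 4 or 8 UMIs. After thinning, 33 of 165 and 36.6% of cells had a UMI, a difference of -16.6 points (-25.2 to -7.40). Wls was also lower in B cells (log2 ratio -0.96) and less so in Retnla macrophages (-0.59), T cells (-0.34) and C1q macrophages (-0.25). Its level of 226 CPM in the fl/fl gate was above the 116 CPM of T cells, 90.5 CPM of B cells, 75.6 CPM of Retnla and 52.4 CPM of C1q macrophages in that library.

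Ddit4, an inhibitor of mTOR signalling induced by stress and glucocorticoids, was at 96.0 CPM (79.2 to 115) and 199.7 CPM (181 to 219), with a log2 ratio of -1.06 (-1.37 to -0.76). Its UMIs were in 41.2% and 68.0% of gate cells, and in 20.6% and 31.3% after thinning (difference -10.7 points, -19.2 to -1.66). Here too other gates were lower in Cd36-/-, at -0.98 in B cells, -0.89 in Retnla macrophages and -1.63 in C1q macrophages, while T cells were at -0.07. Skint3, of the Skint family, whose founder acts in the selection of skin T cells, was detected in 7.27% and 27.6% of gate cells (15.2 and 44.4 CPM), with -1.47 in B cells and -2.90 in C1q macrophages at low counts. Acadl, an enzyme that oxidises long-chain fatty acids, had a log2 ratio of -1.36 (-2.20 to -0.59) on 17 and 80 UMIs, and lay between -0.64 and 0.09 in T cells, B cells and both macrophage gates. Txnip, a glucose-responsive gene, was at 147 and 244 CPM. Fabp5, a fatty acid carrier, was at 48.9 and 97.5 CPM with nearly the same share of positive cells, 21.2% and 22.4%, and its log2 ratio moved from -1.0 to -0.56 without the highest cell of each library. S100a4, a calcium-binding protein gene, was at 1169 and 1627 CPM, with 58.1% of its 3′ words shared with other transcripts. The other genes of the 12 lowest were Nfatc2, Gdap2 and Dopey1, each on 11 or fewer Cd36-/- UMIs.

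The chemokines Ccl17 and Ccl22, which attract T cells that carry CCR4, had the lowest log2 ratios, -2.82 and -2.93, but these came from very few cells. Ccl17 gave 17 UMIs in 5 Cd36-/- cells and 221 UMIs in 5 fl/fl cells, and a single fl/fl cell held 213 of them. Without the highest cell of each library the log2 ratio was 0.20. Ccl22 gave 4 UMIs in 2 cells and 56 UMIs in 4 cells, of which 1 held 27. In both libraries the 5 cells with Ccl17 also had more Il4i1, at 140 and 351 CPM against 12.3 and 16.9 CPM in the rest. Il4i1 rested on 7 and 20 UMIs in those cells, and Fscn1 gave 0 and 5. These chemokines were thus made by rare cells, and their levels in the gate say little about the other members.

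Among the higher genes, several were also higher in the other gates. Gstp1, a detoxifying enzyme, was at 103 and 55.9 CPM (log2 ratio 0.88), and its log2 ratios were 0.63 to 0.81 in the Retnla and C1q macrophages, B cells and T cells. Of its 3′ words, 83.4% occur in other transcripts. Cox16 (all of its words shared) and the dynein light chain gene Dynlt1c (92.8% shared) had log2 ratios of 1.39 and 1.55, and both were above 0 in all 4 gates. The counts of these 3 genes are therefore uncertain, and their log2 ratios lay on the same side of 0 in the gate and in those 4 gates.

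**Figure D4:**
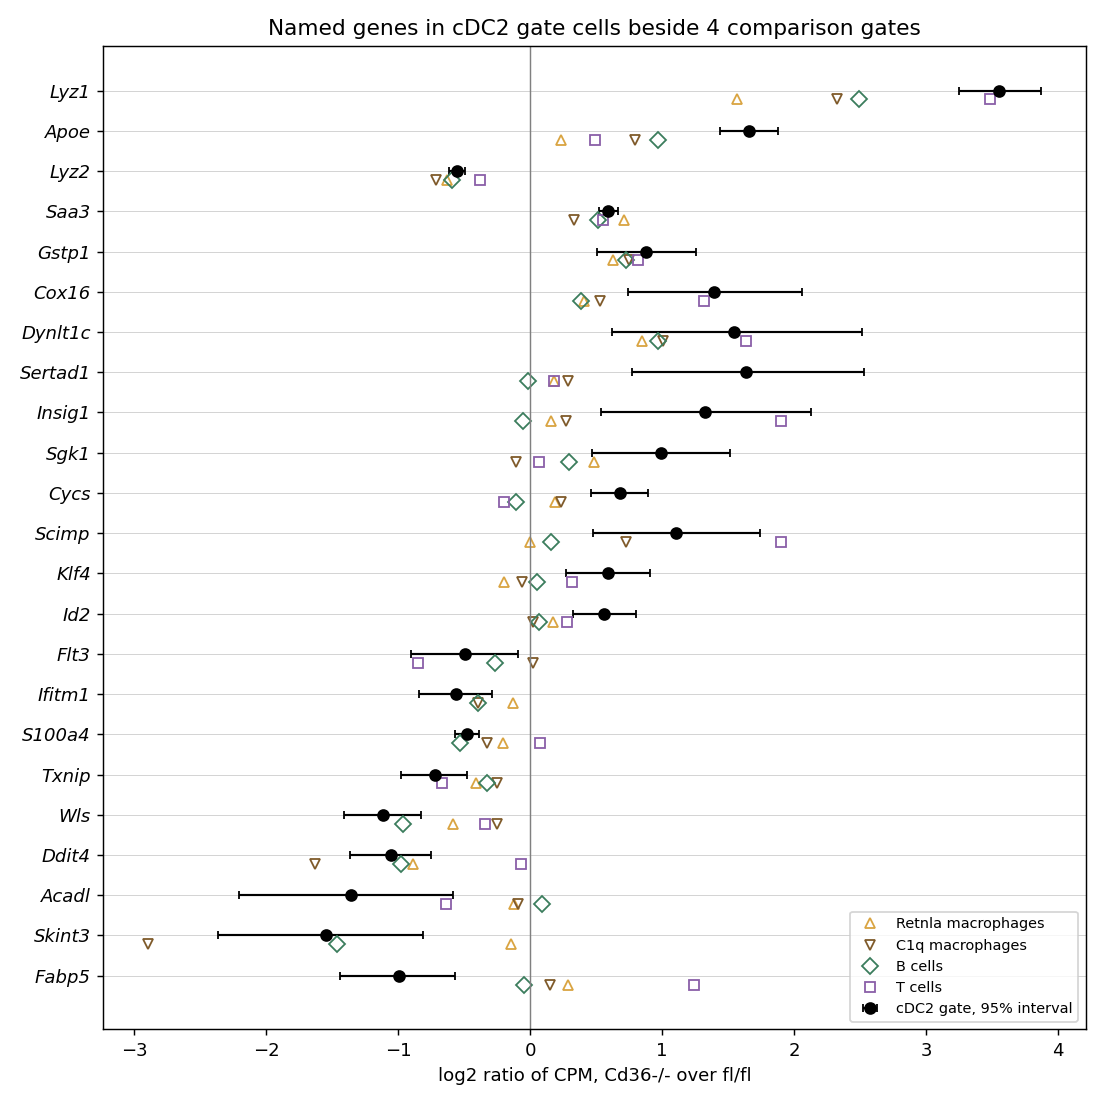
Log2 ratio of CPM in Cd36-/- over fl/fl (x axis) for 23 genes; filled circles with bars are the cDC2 gate with its 95% interval, and open symbols are 4 comparison gates without intervals. Lyz2, Saa3 and Gstp1 have similar ratios in all gates, while Cycs at 0.68 and Acadl at -1.36 in the cDC2 gate lie apart from the macrophage and B cell gates.

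Of the other higher genes, Cycs had the most counts. Cycs, cytochrome c of the respiratory chain, was at 280 CPM (250 to 311) and 175 CPM (158 to 193), a log2 ratio of 0.68 (0.46 to 0.89), beside 0.19 and 0.24 in the Retnla and C1q macrophages, -0.11 in B cells and -0.20 in T cells. Sertad1, a cell cycle regulator, had the highest ratio of the 12 at 1.63 (0.77 to 2.53), on 32 and 19 UMIs in 25 and 18 cells. Insig1, which holds back sterol synthesis when sterols are plentiful, was at 28.6 and 11.4 CPM (log2 ratio 1.32, 0.54 to 2.13). Sgk1, a kinase induced by glucocorticoids, was at 56.4 and 28.4 CPM, in 30.9% and 21.2% of gate cells. Scimp, an adaptor that signals from MHC class II, was at 40.4 and 18.8 CPM. Ubxn2b, Nelfcd and Hagh had log2 ratios of 1.56, 1.44 and 1.24 on 24 to 36 Cd36-/- UMIs.

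Gene lists were set beside all genes, of which 4.74% were at least 1.5-fold higher and 3.36% at least 1.5-fold lower in the Cd36-/- gate cells. Antigen presentation differed little. Of 12 MHC class II partners compared, 0 passed 1.5-fold in either direction and the median log2 ratio was 0.00; H2-DMa, which loads peptides, was at 1226 and 1279 CPM and Ciita, the master regulator of the class, at 241 and 277 CPM. Of 14 MHC class I genes, 0 passed 1.5-fold and the median was 0.05, with B2m at 0.30 (0.24 to 0.36). Of 15 genes of fungal and C-type lectin recognition, 1 was at least 1.5-fold higher, the lipopolysaccharide co-receptor Cd14, which was under 1/5 of its macrophage level. Zymosan is recognised by Dectin-1, TLR2 and other receptors, and Tlr2 was at 22.7 and 22.0 CPM. Costimulation and checkpoint genes were scarce, with 5 of 16 compared and a median of -0.15; Cd86, too low to be compared, was at 10.1 and 12.4 CPM.

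Of 18 dendritic cell transcription factors, 1 was at least 1.5-fold higher and 0 lower, with a median of 0.08. That factor was Klf4, needed by a part of cDC2, at 128 and 85.2 CPM (log2 ratio 0.59, 0.27 to 0.91), which is just past 1.5-fold, while its log2 ratios were -0.06 in C1q and -0.20 in Retnla macrophages. Id2, which favours dendritic cell over B cell or plasmacytoid fate, was at 222 and 150.2 CPM (0.56, 0.32 to 0.80), and Irf4 was at 0.28 (-0.10 to 0.66). Of 19 growth factor and cytokine receptors, 0 passed 1.5-fold in either direction. Of 13 chemokine receptor and migration genes, Itgal, an integrin chain of leukocytes, was higher (26.1 and 16.9 CPM) and Cxcr4 was lower, at 8.42 and 20.6 CPM, and it was also lower in B cells (log2 ratio -1.19) and C1q macrophages (-1.63).

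Genes of sterol and fatty acid synthesis had the highest median of the lists with at least 5 genes compared, 0.36, with 9 of 11 above 0, 4 at least 1.5-fold higher and 0 lower. Lists with 4 genes compared reached higher medians, 0.59 for S phase and 0.75 for T cell markers. Among them were Insig1, Hmgcs1, an enzyme of cholesterol synthesis (50.5 and 31.6 CPM, log2 ratio 0.68), and Msmo1, another (30.3 and 18.3 CPM, 0.73). The same list had medians of -0.14 and -0.10 in the Retnla and C1q macrophages, -0.05 in B cells and 0.63 in T cells. Insig1, Hmgcs1 and Msmo1 each rested on 25 to 69 UMIs per library. Insig1 and Msmo1 were under 20 CPM in fl/fl, so they met the limit only through the Cd36-/- library, where they were higher. Genes of fatty acid uptake and oxidation had a median of -0.13, with 2 of 9 above 0 and 3 at least 1.5-fold lower, namely Acadl, Fabp5 and Fabp4, of which Fabp4 was under 1/5 of its macrophage level.

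Interferon-induced genes had list medians somewhat above that of all genes. Over all 4468 genes compared, 8.46% of intervals lay above 0 and 4.63% below 0. Of 10 genes of the type I response, 9 were above 0, 3 at least 1.5-fold higher and the median was 0.25; Rtp4 was at 33.7 and 15.1 CPM (log2 ratio 1.16) and Isg15 at 37.1 and 23.8 CPM, and the third was Oas1a (0.73). Intervals lay above 0 for 2 of the 10 genes and below 0 for 1, and the whole type I list summed to 1201 and 1133 CPM. Ifitm1, named above as interferon-induced, was lower (-0.56, -0.84 to -0.29). The medians of the type I list were 0.03 in Retnla macrophages, 0.11 in C1q macrophages, 0.10 in B cells and 0.09 in T cells. Of 7 genes induced by interferon-gamma, 6 were above 0 and 2 at least 1.5-fold higher, Igtp (1.08) and Ifi47 (0.69), with a median of 0.28. Intervals lay above 0 for 2 of the 7 and below 0 for 0. The interferon-gamma list was at 0.52 in Retnla and 0.40 in C1q macrophages, and at -0.06 in B cells and -0.07 in T cells, and Igtp was at 1.28 and 0.77 in those macrophages. Of all genes compared, 57.9% were above 0.

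Genes induced by glucocorticoids were divided. Of 11 compared, 4 were at least 1.5-fold lower and 1 higher, with a median of -0.30: Ddit4, Cxcr4, Fkbp5 (-0.81) and Pik3ip1 (-0.71) were lower and Sgk1 was higher, and the intervals of Fkbp5 and Pik3ip1 included 0. Tsc22d3, which encodes the glucocorticoid-induced leucine zipper protein, was at 284 and 368 CPM (-0.38, -0.56 to -0.19), and at -0.72 in C1q macrophages. The median was -0.35 in C1q macrophages and -0.22 in B cells, and it turned to 0.11 in the gate when only genes with at least 50 CPM were kept, and to 0.10 without the highest cell of each library for each gene. Heat shock chaperones were lower as a list, with 9 of 11 below 0 and a median of -0.16, beside -0.62 in B cells and -0.31 in C1q macrophages; Hsp90ab1 was at 966 and 1219 CPM. Immediate early genes, which rise during cell handling, had 9 of 13 below 0 and a median of -0.18, with Jun at 17.7 and 32.5 CPM.

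**Figure D5:**
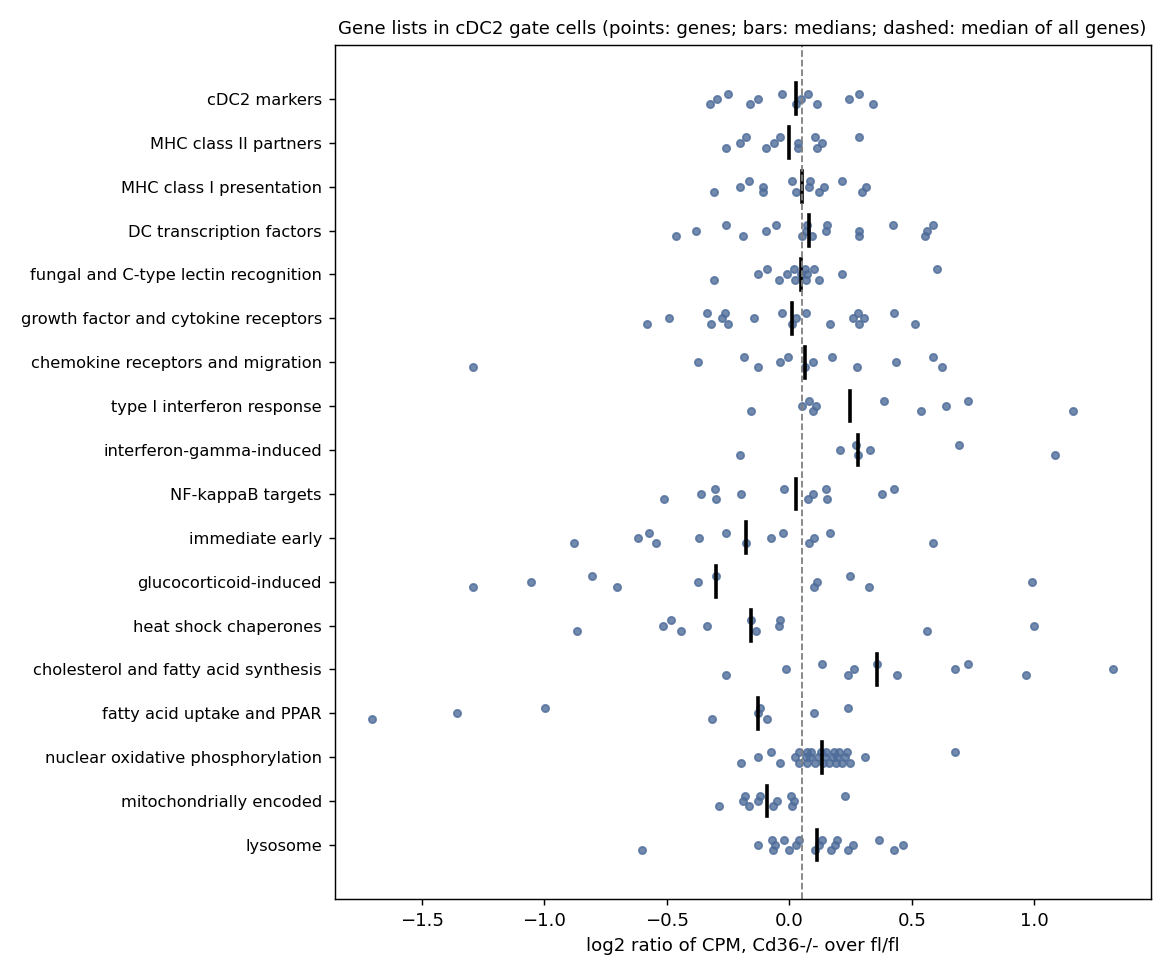
Log2 ratio of CPM in Cd36-/- over fl/fl gate cells (x axis) for the genes of 18 lists (points), with the median of each list (black bar) and of all 4468 genes (dashed line, 0.05). Sterol synthesis and the interferon lists have medians of 0.25 to 0.36, and the glucocorticoid list, at -0.30, is the lowest shown.

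Nuclear genes of oxidative phosphorylation differed slightly, mostly in 1 direction. Of 30 compared, 26 were above 0 with a median of 0.13, beside 0.05 for all genes, and Cycs alone passed 1.5-fold. Intervals lay above 0 for 8 of the 30 and below 0 for 0, beside 8.46% and 4.63% of all genes compared. The same list had medians of 0.10 in C1q macrophages, 0.03 in Retnla macrophages, 0.01 in B cells and -0.0009 in T cells. The 12 genes encoded in mitochondria had a median of -0.09, with 4 above 0. Lysosomal genes had a median of 0.11, with 13 of 20 above 0, and genes of efferocytosis and scavenging, which macrophages use to clear dying cells, had 1 of 7 above 0; that gene, Marco, was under 1/5 of its macrophage level.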

How the data were processed

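One library per genotype was made with the 10x Genomics 3′ v2 kit, per the labels. Raw UMI counts of 31053 genes per barcode were deposited; the file headers give software version 3.0.0, and the submitters' processing notes name Cell Ranger and mm10. Barcodes numbered 16543 and 15537; 36 and 38 had under 200 genes and 507 and 766 more over 10% mitochondrial UMIs. Scrublet (scanpy 1.11.5) marked doublets per library, which were kept, as the rule does not exclude them. The Retnla limit was read per 10000 UMIs.

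No authors' annotation of cell types was used. Comparison gates, each excluding the ones before, were cDC1 (at least 3 UMIs of Xcr1 and Clec9a), Retnla and C1q macrophages (at least 10 and 15 per 10000), B cells (at least 3 Cd79a UMIs) and T cells (at least 2 Cd3e UMIs). UMIs were summed per gate and library (CPM), with exact Poisson intervals, exact conditional binomial intervals for ratios and Clopper-Pearson intervals for shares, at 95%. With 1 library per group no test was run. On simulated counts, 99.0% of 100 genes changed 3-fold, 2.0% of 100 changed 1.5-fold and 0.28% of the unchanged genes passed 2-fold, of 4481. The simulated counts were Poisson sums without variation between cells. These shares therefore do not apply to genes whose UMIs lie in few cells, such as Ccl17.

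The gate, its markers and the 50 gene lists were chosen with earlier results of these data known. Named were the 12 genes highest and 12 lowest by the interval bound nearest 0, the 25 highest against other cells, the 20 most variable, fixed markers, Cd36, Lyz1 and Lyz2, and list members; unnamed, mitochondrial, ribosomal, immunoglobulin and sex-linked genes were left out, as were, from the 12s, genes under 1/5 of another gate. Gene positions are from GENCODE M21, which holds 31011 of the gene IDs. Results for 2 genes that this rule names are not reported here. Other limits, scalings and depths were tried as alternatives.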

Additional observations from a re-analysis of the deposited data

How the results depend on the processing

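No paired analysis was possible because each group is 1 library, and for the same reason no replicate could be left out. The counts of genes past 2-fold depended most on the lower limit of level: 2 were higher and 4 lower with at least 50 CPM in 1 library, and 319 and 294 with at least 5 CPM. With Cd209a at least 5 UMIs, 47 were higher and 39 lower, of which 20 and 16 were among the 28 and 21 of the main gate, and with a mean over cells in place of summed UMIs 36 were lower. These alternatives compare other or noisier genes, or fewer cells. Ccl17 turned to 0.20 without the highest cell of each library, an alternative chosen after seeing the data, as was leaving out the limit on Cd79a and Cd3e. The difference in the share of gate cells kept its direction under all 10 alternatives, and that of cells with a Mki67 or Top2a UMI under all 9, at 0.80 to 5.49 points. Of the single log2 ratios recomputed, 309 stayed within their interval, 10 left it and that of Ccl17 turned. Rescaling by the median of ratios shifted all ratios by 0.05.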
